A study of Arabidopsis with 6 samples.

Results

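The B-box genes BBX28 (AT4G27310), BBX29 (AT5G54470), BBX30 (AT4G15248), BBX31 (AT3G21890) and BBX32 (AT3G21150) of Arabidopsis were followed over 6 RNA-seq libraries. These 5 genes, of 19763 listed in every library, were chosen by name as a family group, and they were selected on values already known from these libraries: the light responses and the genotype difference at 0.5 h of light. Every difference given for them is therefore a description, and none was tested. RNA came from PCD8 RNAi-21 plants, a line named for RNA interference against PCD8 and labelled a mutant, and from the wild type (WT). Plants of both genotypes were grown in darkness at 22 °C for 4 days on half-strength MS agar and sampled at 0 h, or after 0.5 h or 2 h in light of 120 μmol per square metre and second. Each of the 6 combinations is 1 library, so no value has a replicate error and the spread between plants is unknown. RNAi-21 is 1 transgenic line, and the promoter of its construct is not given in the sources used here.

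B-box proteins are plant transcription regulators named after a zinc-binding domain that mediates contacts between proteins. BBX28 to BBX32 carry a single such domain and lack the CCT domain of CONSTANS and its closest relatives. In seedlings that leave darkness they are known mostly as brakes on de-etiolation, the switch from hypocotyl growth to greening: they bind or titrate HY5, the bZIP factor that drives this switch, or B-box partners of HY5. BBX30 and BBX31 are microProteins, small proteins that are little more than the interaction domain. They are also known to link CONSTANS, the photoperiodic activator of flowering, to TOPLESS corepressors.

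Values were read as FPKM, a level scaled for transcript length and library size, so levels of different genes can be set side by side. The sum over all genes was 757504 to 891009 FPKM per library, and the read depth is unknown. The labelled tissue is leaf, but markers of the root were abundant: CASP1, a protein of the root endodermis, was at 371 to 459 FPKM in RNAi-21 and 425 to 491 FPKM in WT. The 7 root markers summed to 6189 to 7311 FPKM in RNAi-21 and 3997 to 5416 FPKM in WT, most of it the root beta-glucosidase PYK10, and none was at 0. One library stood apart, WT at 0.5 h, in which 9 seed reserve genes summed to 202.8 FPKM. Their sum was 15.6 and 24.1 FPKM in the other WT libraries and 19.9 to 70.6 FPKM in RNAi-21. Most of the 202.8 FPKM was CRU3 at 84.7 FPKM and CRA1 at 63.9 FPKM. Of the 9, 8 were called higher in this library than in WT at 0 h, whereas EM6 was at its lowest in it, 5.11 FPKM. A fold that rests on this library has no check from a second WT library, and the comparisons below share libraries. PCD8 transcript itself was not used here, since the name table gives that name to no locus, so the RNAi label has no check from its target.

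In the dark, BBX28 was the only one of the 5 genes with an appreciable level. BBX28, which binds HY5 and lowers its activity at target promoters, stood at 35.2 FPKM in RNAi-21 and 45.4 FPKM in WT at 0 h. BBX29, its closest relative, stood at 1.81 FPKM in RNAi-21 and 2.00 FPKM in WT. The other 3 genes were below 0.6 FPKM in both genotypes. BBX28 thus made up 94.2% of the summed FPKM of the 5 genes in dark-grown RNAi-21 and 92.6% in dark-grown WT.

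Among the 3 genes that were near the bottom of the scale in the dark, BBX30 was listed at 0 FPKM in RNAi-21 and at 0.55 FPKM in WT. BBX31 was at 0.30 FPKM in RNAi-21 and 0.59 FPKM in WT. BBX32, a partner of BBX21 that dampens HY5 signalling, was at 0.074 FPKM in RNAi-21 and 0.51 FPKM in WT. All 3 were lower in RNAi-21 than in WT, but a listed 0 can be a failed estimate, and at these levels a fold has little meaning.

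All 5 genes were therefore lower in RNAi-21 than in WT in the dark, by small amounts. Differences are given as RNAi-21 minus WT on the log2(FPKM + 1) scale, and a difference of at least 1 in size is called 2-fold. Near 0 FPKM this scale gives smaller differences than the ratio of the listed values would. BBX30 differed by -0.63, BBX32 by -0.49, BBX28 by -0.36, BBX31 by -0.29 and BBX29 by -0.095. None of the 5 was called 2-fold, although with a pseudocount of 0.1 BBX30 was called lower at -2.70 and BBX32 at -1.81. Of the 18441 genes that reached 1 FPKM in any library, 0.168% were called higher and 0.396% lower. The median over the 5 was -0.36, and over all tested genes it was -0.0071.

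**Figure D1:**
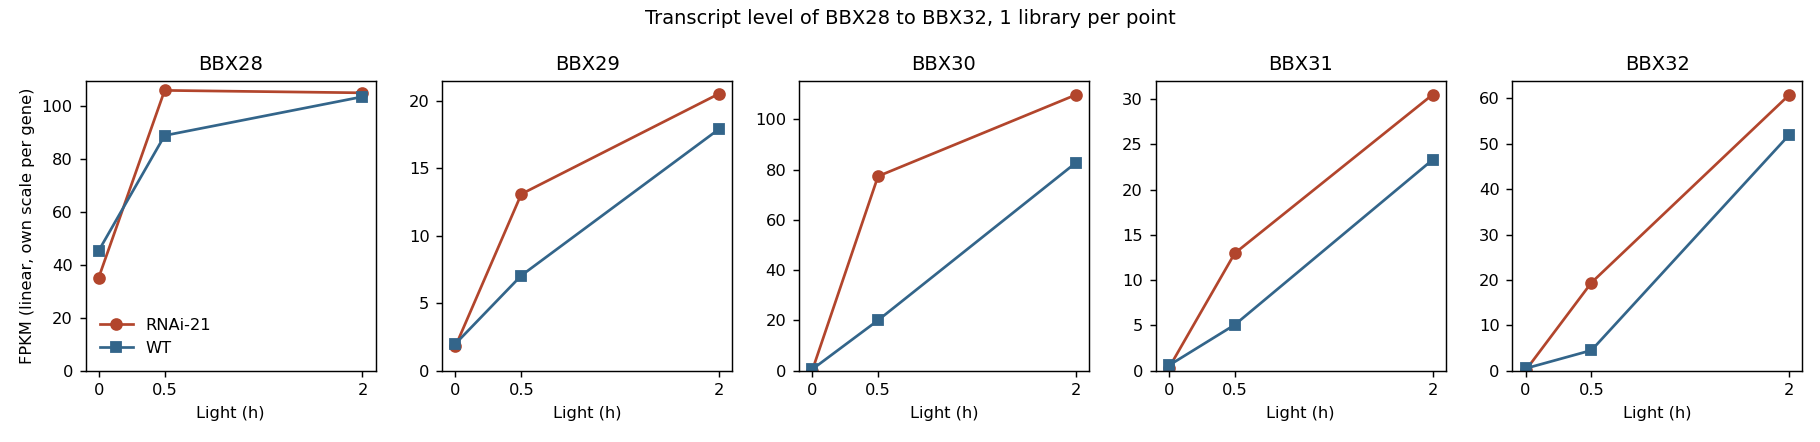
FPKM of BBX28 to BBX32 (vertical axes, linear, with a scale for each gene) against hours of light, for RNAi-21 (circles) and WT (squares), with 1 library per point. At 0 h RNAi-21 lay below WT for each gene, and at 0.5 h it lay above WT for each gene, with BBX30 at 77.3 FPKM in RNAi-21 and 20.1 FPKM in WT.

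After 0.5 h of light the order of the genotypes was the other way round for all 5 genes. BBX30 reached 77.3 FPKM in RNAi-21 and 20.1 FPKM in WT, a ratio of 3.85. BBX32 reached 19.4 FPKM in RNAi-21 and 4.51 FPKM in WT, a ratio of 4.30. These 2 genes had the widest gaps of the 5.

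The other microProtein gene followed at a lower level. BBX31 was at 13.0 FPKM in RNAi-21 and 5.07 FPKM in WT, a ratio of 2.56. BBX29 was at 13.1 FPKM in RNAi-21 and 7.06 FPKM in WT, a ratio of 1.86. BBX28, already expressed in the dark, had the narrowest gap, with 106 FPKM in RNAi-21 and 89.0 FPKM in WT, a ratio of 1.19.

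On the log2(FPKM + 1) scale the differences at 0.5 h were 1.89 for BBX30 and BBX32, 1.2 for BBX31, 0.81 for BBX29 and 0.25 for BBX28. Thus 3 of the 5 genes were called 2-fold higher in RNAi-21, where 0.841% of all tested genes were. BBX30 and BBX32 held places 12 and 14 from the top among the 18441 tested genes, BBX31 place 83, BBX29 place 306 and BBX28 place 2795. Nothing is read from this share or these places, since the genes were chosen with this difference known. The seed reserve genes differ in the same pair of libraries, with 38.9 FPKM summed in RNAi-21 and 202.8 FPKM in WT. Of the 9, 8 were lower in RNAi-21 and 1 higher, and their part in the result was not tested. Mesophyll markers, 5 genes, summed to 1868 FPKM in RNAi-21 and 2647 FPKM in WT, and their part was not tested either. Most of this sum was RBCS1A, at 1463 FPKM in RNAi-21 and 2106 FPKM in WT, though all 5 were lower in RNAi-21. In each genotype 3 of these 5 markers were called higher at 2 h than at 0 h, so their level also changes in light. The root marker sum was 6189 FPKM in RNAi-21 and 3997 FPKM in WT, nearly all of the gap being PYK10 at 5703 FPKM in RNAi-21 and 3478 FPKM in WT. Of the 7 root markers 4 were lower in RNAi-21, among them CASP1 at 438 FPKM in RNAi-21 and 465 FPKM in WT, and the median difference was -0.087. In bulk tissue, more cells with a transcript and more transcript per cell cannot be told apart.

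**Figure D2:**
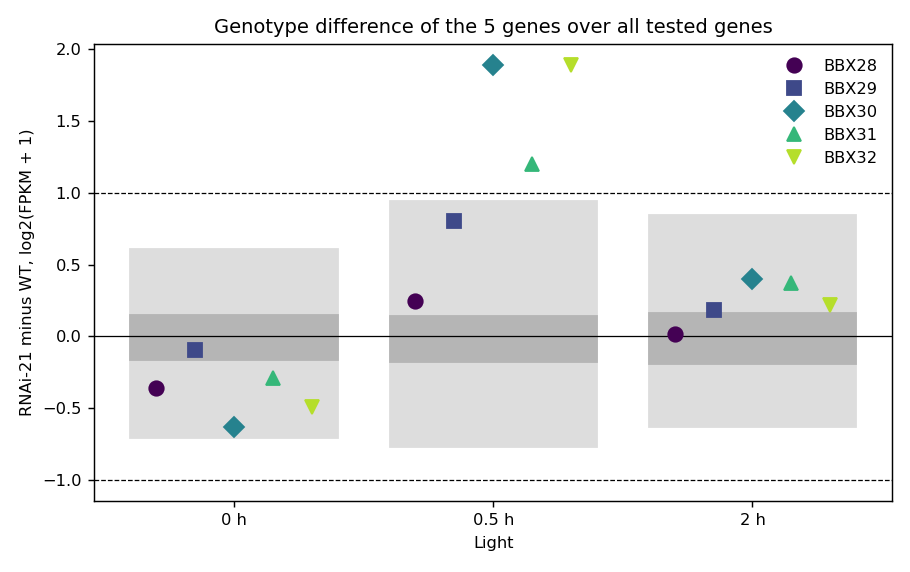
RNAi-21 minus WT on the log2(FPKM + 1) scale (vertical axis) at 0, 0.5 and 2 h of light for the 5 genes. Light grey boxes span the 1st to 99th percentile and dark grey boxes the quartiles of all 18441 tested genes, and dashed lines mark the 2-fold call. The 5 genes lay below 0 at 0 h, and at 0.5 h BBX30, BBX31 and BBX32 lay above the upper dashed line.

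By 2 h of light the genotypes had come close together again. BBX30 was at 110 FPKM in RNAi-21 and 82.7 FPKM in WT, and BBX31 at 30.5 FPKM in RNAi-21 and 23.3 FPKM in WT. BBX32 was at 60.8 FPKM in RNAi-21 and 52.0 FPKM in WT. The differences of these genes were 0.40, 0.37 and 0.22, so the gap seen at 0.5 h was smaller in all 3.

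BBX29 was at 20.5 FPKM in RNAi-21 and 17.9 FPKM in WT after 2 h. BBX28 was at 105 FPKM in RNAi-21 and 104 FPKM in WT. The differences were 0.19 and 0.02, and that of BBX28 turned to -0.09 when library totals were made equal without the genes of plastid and mitochondrial genomes, here called totals equalised. None of the 5 was called 2-fold at 2 h, and 0.575% of all tested genes were called higher. In the same libraries the median difference of all tested genes was -0.019.

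The light response was asked next within each genotype. Without dark-kept plants of matching age, the effect of light and that of the passing hours cannot be told apart. After 0.5 h in RNAi-21 all 5 genes were called 2-fold higher than at 0 h, and 1.78% of all tested genes were. BBX30, listed at 0 FPKM in the dark, had the highest difference of all 18441 tested genes, 6.29. BBX32 had the next largest of the 5, 4.25 (place 5), followed by BBX31 with 3.43, BBX29 with 2.33 and BBX28 with 1.56. None of these values uses the WT library with the seed reserve transcripts.

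In WT, 4 of the 5 genes were called 2-fold higher after 0.5 h than at 0 h, and 0.819% of all tested genes were. BBX30 differed by 3.77, at place 6 of all tested genes. BBX31 differed by 1.94, BBX32 by 1.87 and BBX29 by 1.43, and BBX28 missed the call at 0.96, though it passed at 1.03 with totals equalised. BBX31 and BBX32 stood side by side in WT, whereas in RNAi-21 BBX32 was ahead of BBX31 by the 4.25 and 3.43 given above.

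The response over 0.5 h was larger in RNAi-21 for all 5 genes. The response in RNAi-21 minus that in WT was 2.52 for BBX30, 2.38 for BBX32, 1.49 for BBX31, 0.90 for BBX29 and 0.61 for BBX28. The first 3 exceed 1, as do 0.927% of all tested genes. These values combine the lower dark level and the higher 0.5 h level in RNAi-21, and their size depends on the pseudocount. With a pseudocount of 0.1 they were 4.64 for BBX30, 3.89 for BBX32 and 2.12 for BBX31. For BBX30 the dark libraries, with a listed 0 FPKM in RNAi-21 and 0.55 FPKM in WT, make up 0.63 of the 2.52 at a pseudocount of 1 and 2.70 of the 4.64 at 0.1.

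After 2 h all 5 genes were called 2-fold higher than at 0 h in both genotypes, where 8.85% of all tested genes were in RNAi-21 and 7.8% in WT. In RNAi-21 the differences were 6.79 for BBX30 and 5.85 for BBX32, at places 4 and 12 of all tested genes. In WT they were 5.76 for BBX30 and 5.13 for BBX32, at places 9 and 15. BBX31 followed with 4.60 in RNAi-21 and 3.93 in WT, then BBX29 with 2.94 in RNAi-21 and 2.66 in WT, and BBX28 with 1.55 in RNAi-21 and 1.17 in WT. The ranking of the 5 by 2 h response was thus the same in both genotypes. The 2 h response in RNAi-21 minus that in WT exceeded 1 for BBX30 alone, at 1.03, as it did for 0.976% of all tested genes. It was 0.91 for BBX30 with totals equalised.

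Between 0.5 h and 2 h the genotypes moved unequally. In WT, 4 of the 5 genes were called 2-fold higher at 2 h than at 0.5 h, where 6.68% of all tested genes were. BBX32 differed by 3.26, BBX31 by 2.00, BBX30 by 1.99 and BBX29 by 1.23 in WT. In RNAi-21, 2 of the 5 were called, BBX32 at 1.60 and BBX31 at 1.17, where 6.49% of all tested genes were. BBX31 missed the call at 0.95 with totals equalised. BBX29 differed by 0.61 and BBX30 by 0.50 in RNAi-21, and BBX28 by -0.012 in RNAi-21 and 0.22 in WT. The value of BBX28 in RNAi-21 ran from -0.24 to 0.02 over the scalings.

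The timing can be put as the share of the rise in FPKM between 0 h and 2 h that was already present at 0.5 h. BBX28 had its whole 2 h rise at 0.5 h in RNAi-21, 101%, and 74.8% in WT. BBX30 had 70.5% of its rise in RNAi-21 and 23.8% in WT, the widest gap of the 5. BBX29 had 60.3% in RNAi-21 and 31.8% in WT.

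BBX31 and BBX32 had the smallest shares of the 5 in both genotypes, although both were already called higher at 0.5 h. BBX31 had 42.0% of its rise at 0.5 h in RNAi-21 and 19.8% in WT. BBX32 had 31.9% in RNAi-21 and 7.78% in WT. For each of the 5 genes the share was higher in RNAi-21, by 22.2 to 46.7 percentage points. With totals equalised the gaps were 28.7 to 58.0 points, and that of BBX28 was 48.0 in place of 26.5. That scaling also moved the median of all tested genes from 0.5 h to 2 h in RNAi-21, from -0.027 to -0.23. Gaps of other genes are not given under it, so the wider gaps are not read as particular to the 5.

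**Figure D3:**
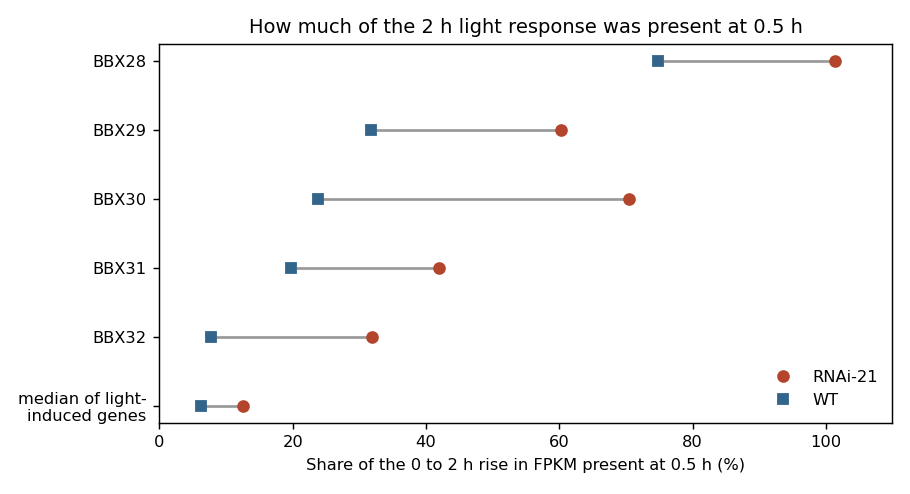
Share of the rise in FPKM between 0 h and 2 h that was present at 0.5 h (horizontal axis, percent) in RNAi-21 (circles) and WT (squares) for the 5 genes, with the median of 1209 light-induced genes in the bottom row. Each gene lay further right in RNAi-21, with BBX30 at 70.5% in RNAi-21 and 23.8% in WT.

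A larger share at 0.5 h in RNAi-21 was common among light-induced genes in these libraries. All these shares use the same pair of 0.5 h libraries, among them the WT library with the seed reserve transcripts. The genes are therefore not independent observations of the genotype. Over the 1209 genes called 2-fold higher at 2 h in both genotypes, a set that includes the 5 and that uses no 0.5 h library, the median share present at 0.5 h was 12.5% in RNAi-21 and 6.21% in WT. The share was higher in RNAi-21 for 907 of them (75%). By the gap in this share BBX30 held place 65 of 1209, BBX29 place 162, BBX28 place 178, BBX32 place 198 and BBX31 place 223. Many light-induced genes outside the group thus had wider gaps than any of the 5, and more still had wider gaps than BBX31. The direct genotype difference at 0.5 h had a median of 0.26 over the 1209 genes, with 893 above 0 and 6.04% called 2-fold higher. In that measure BBX30 and BBX32 held places 2 and 4, BBX31 place 46, BBX29 place 132 and BBX28 place 610, close to the middle.

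All 5 genes shared 1 direction: below WT in dark-grown RNAi-21, and above WT after 0.5 h and 2 h of light, except that BBX28 at 2 h turned to -0.09 with totals equalised. The direction was found for 260 of the 1209 light-induced genes (21.5%) and for 1924 of all 18441 tested genes (10.4%). The genes were chosen with part of this pattern known, so the count is a description.

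The genes rose by different amounts over the hours in light, and the make-up of the group shifted. The summed level of the 5 was 37.4 FPKM at 0 h, 229 FPKM at 0.5 h and 327 FPKM at 2 h in RNAi-21. In WT it was 49.1 FPKM at 0 h, 126 FPKM at 0.5 h and 279 FPKM at 2 h. At 0.5 h BBX28 accounted for 46.3% of the sum in RNAi-21 and 70.8% in WT, and BBX30 for 33.8% in RNAi-21 and 16.0% in WT. At 2 h BBX28 had come down to 32.2% in RNAi-21 and 37.1% in WT, and BBX30 stood at 33.6% in RNAi-21 and 29.6% in WT. BBX29 kept a share of 4.07% to 6.41% in every library.

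**Figure D4:**
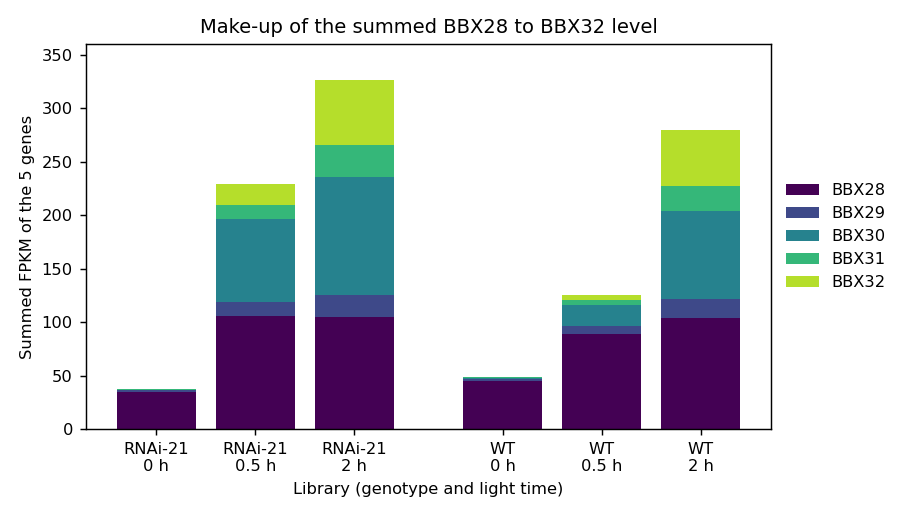
Summed FPKM of the 5 genes (vertical axis, linear) in the 3 RNAi-21 libraries and the 3 WT libraries, with a coloured segment for each gene. BBX28 fills most of the bar at 0 h in both genotypes, and BBX30 is the other large segment at 0.5 h in RNAi-21 and at 2 h in both genotypes.

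The order of the levels changed over the hours in light in both genotypes, and at each time it differed in part between them. BBX28 was the highest of the 5 in 5 of the 6 libraries, and BBX30 in RNAi-21 at 2 h, where it was at 110 FPKM and BBX28 at 105 FPKM. BBX30 stood last in dark-grown RNAi-21, just above BBX32 in dark-grown WT, and next after BBX28 at 0.5 h in both genotypes. At 2 h BBX32, BBX31 and BBX29 followed in this order in both genotypes. At 0.5 h BBX32 came after BBX30 in RNAi-21 and last in WT. BBX29 and BBX31 were neighbours at 0.5 h in both genotypes, BBX29 at 13.1 FPKM in RNAi-21 and 7.06 FPKM in WT, and BBX31 at 13.0 FPKM in RNAi-21 and 5.07 FPKM in WT. With 1 library per group it is not known which of these neighbours differ beyond the spread between plants.

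The 5 genes also differed in how alike their profiles were. With each profile of log2(FPKM + 1) over the 6 libraries centred on its own mean, the nearest pair was BBX31 and BBX32, at a Euclidean distance of 1.36. BBX29 lay about as close to BBX31 (1.51) as to BBX28 (1.51). The microProtein pair BBX30 and BBX31 was 2.60 apart, further than BBX30 and BBX32 at 1.99. BBX28 and BBX30 were the most distant pair, at 5.28. In the name table BBX30 and BBX31 each lie next to another B-box gene, BBX9 and BBX10, neither of which is among the genes used here.

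Outside the group, 6524 genes with a symbol and at least 5 FPKM in a library were ranked by the same distance. Nearest to the mean profile of the 5 were DIP2 at 0.35, the clock repressor PRR9 at 0.50, the sucrose phosphate synthase gene SPS2F at 0.68, the double B-box gene BBX24 (also STO) at 0.71 and HY5 at 0.73. BBX28 was nearest to ABS2 (0.26), BMY3 (0.33) and the splicing factor SR45a (0.39). BBX29 was nearest to CDF1 (0.28), a Dof repressor of CONSTANS, to the clock factor CCA1 (0.34) and to MAPKKK14 (0.45). BBX31 was nearest to DIP2 (0.42), PRR9 (0.57) and BBX24 (0.58).

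BBX32 was nearest to the Nudix hydrolase gene NUDX19, at 0.63, then to the flavonoid glucosyltransferase UGT78D2 at 1.16 and the transporter gene ABCI20 at 1.17. BBX30 had no gene within a distance of 1: NUDX19 was closest at 1.83, followed by ABCI21 at 2.03 and PRR9 at 2.60. NUDX19 had 0.076, 19.2 and 39.4 FPKM at 0, 0.5 and 2 h in RNAi-21, and 0.16, 5.13 and 48.7 FPKM at these times in WT. Its level at 2 h was lower in RNAi-21 than in WT, unlike those of BBX30 and BBX32. The distances run over 6 libraries that share 2 genotypes and 3 times, and they rank likeness only. With Pearson's correlation as the measure, 1 of the 3 nearest genes of BBX28 was shared and 0 of those of each other gene. By that measure, which ignores the size of the response, BBX30 was nearest to MBF1C (r = 0.997), BMY3 (0.997) and PKS1 (0.995), over the same 6 libraries.

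Of the 27 other B-box genes, 23 were listed and 22 reached 1 FPKM. At 0.5 h 1 of the 22 was called 2-fold higher in RNAi-21 and none lower. This was BBX18, a double B-box gene, at 7.10 FPKM in RNAi-21 and 3.04 FPKM in WT, with a difference of 1.00. The median difference over the 22 was -0.085, with 8 above 0, and over BBX28 to BBX32 it was 1.2 with all 5 above 0. The 5 were chosen with this difference known, so nothing is read from the contrast. Of the 22, 6 were called higher at 0.5 h than at 0 h in RNAi-21. Between genotypes at 0.5 h these differed by 1.00 (BBX18), 0.79 (BBX25), 0.65 (BBX24), 0.56 (BBX19), 0.29 (BBX22) and -0.18 (BBX2). In WT the 0.5 h response of BBX18, BBX22 and BBX19 was not called, at 0.70, 0.68 and 0.50. The call in RNAi-21 and the genotype difference share the RNAi-21 library at 0.5 h, so nothing is read from these signs. With totals equalised, 10 of the 22 lay above 0 between genotypes at 0.5 h. At 0 h and at 2 h none of the 22 was called in either direction, although at 2 h BBX17 at -0.97 passed the call at -1.07 with totals equalised and at -1.04 with a pseudocount of 0.1, where BBX23 passed it at 1.24. Without rescaling, the medians were -0.12 at 0 h and 0.0080 at 2 h, the second turning to -0.094 with totals equalised.

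Over the hours in light the other B-box genes changed in both directions. At 2 h, 8 of the 22 were called higher and 5 lower than at 0 h in RNAi-21, and 6 higher and 4 lower in WT. Of all 18441 tested genes, 1632 were called higher and 805 lower in RNAi-21, and 1438 higher and 840 lower in WT. BBX25 had the largest difference, 4.98 in RNAi-21 and 4.25 in WT, followed by BBX24 with 4.27 in RNAi-21 and 3.73 in WT. BBX24 and BBX25 are known as negative regulators that interact with HY5. BBX23 had the lowest, -2.31 in RNAi-21 and -2.21 in WT. BBX20 differed by -1.09 in RNAi-21 and -1.61 in WT, and BBX17 by -2.07 in RNAi-21 and -1.42 in WT. At 0.5 h, 6 of the 22 were called higher and 2 lower in RNAi-21, the lower ones being BBX14 at -1.16 and BBX20 at -1.02, and 3 were called higher and none lower in WT. BBX30 and BBX32 thus had larger 2 h responses than any of the 22 in both genotypes, while 6 of the 22 exceeded BBX28 in each genotype.

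**Figure D5:**
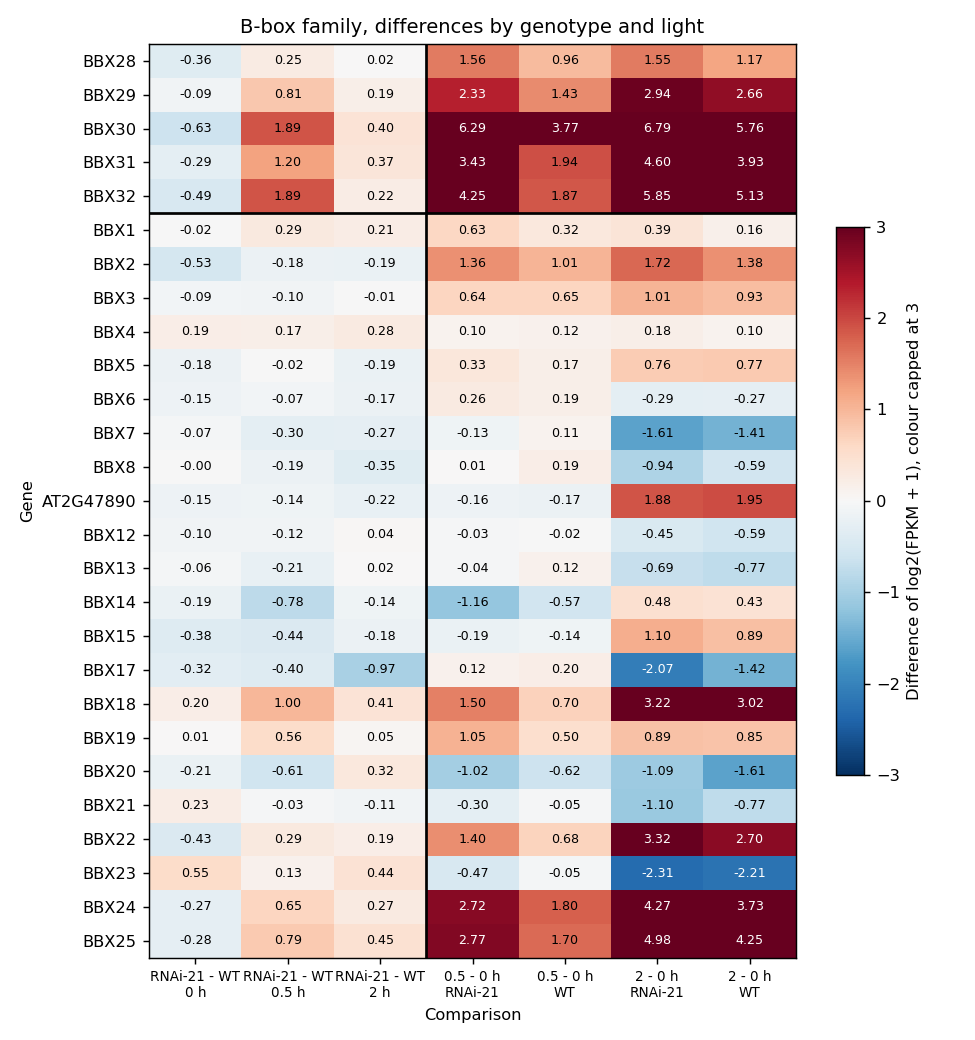
Differences of log2(FPKM + 1) for the 5 genes (above the line) and the 22 other B-box genes that reached 1 FPKM, with comparisons in columns: RNAi-21 minus WT at 0, 0.5 and 2 h, then light minus dark in each genotype. Colours run from blue (negative) to red (positive) and are capped at 3, and each cell prints its value. At 0.5 h BBX30 and BBX32 at 1.89 exceed each of the other B-box genes, of which BBX18 at 1.00 is the highest.

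HY5 and the COP1/SPA complex, the ubiquitin ligase that removes HY5 and several B-box proteins in the dark, were set beside the group. HY5 had 13.2, 103 and 215 FPKM at 0, 0.5 and 2 h in RNAi-21, and 18.0, 78.0 and 181 FPKM at these times in WT. It therefore showed the direction of the 5 genes, with differences of -0.42 at 0 h, 0.40 at 0.5 h and 0.25 at 2 h. Of the 7 listed genes of this list of 8, which also holds DET1, none was called between the genotypes at any time. At 0.5 h 6 of the 7 were higher in RNAi-21, with SPA1 at 0.74 and SPA4 at 0.52, and DET1 was lower at -0.14. At 2 h 6 of the 7 were lower, with SPA2 at -0.32 and SPA4 at -0.30, and HY5 was the exception. At 2 h against 0 h, 4 of the 7 were called higher in RNAi-21 and 5 in WT, with SPA1 at 3.31 in RNAi-21 and 3.65 in WT.

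Genes known to be induced by light through HY5 lay above WT in RNAi-21 at 0.5 h, like the group and like most light-induced genes. Of the 1209 light-induced genes 893 lay above 0, and the median over the 1209 was 0.26. All 9 genes of this HY5 list were higher in RNAi-21, with a median difference of 0.61. That median was the value of MYB12, at 0.72 FPKM in RNAi-21 and 0.13 FPKM in WT, near the bottom of the scale. UGT84A1 was also below 1 FPKM in both genotypes. Of the 9, 2 were called 2-fold, where 0.841% of all tested genes and 6.04% of the 1209 light-induced genes were. The 2 called were F3H, a flavanone hydroxylase, at 1.44 and the plastid sigma factor SIG5 at 1.01. At 0 h 4 of the 9 lay above 0, unlike the 5 B-box genes. F3H was at 17.5 FPKM in RNAi-21 and 5.81 FPKM in WT. At 2 h all 9 were called higher than at 0 h in both genotypes, with F3H at 7.46 in RNAi-21 and 6.82 in WT.

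In the clock, TOPLESS, PIF and EIN3, and photoreceptor lists no gene was called between the genotypes at any time. Of the 8 clock genes that reached 1 FPKM, 6 were higher in RNAi-21 at 0.5 h, led by PRR9 at 0.95, which was 1.01 with totals equalised, and CCA1 at 0.81. At 2 h 7 of the 8 were lower in RNAi-21, with a median of -0.23, PRR9 at -0.20 and CCA1 at -0.25, whereas the 5 B-box genes were all higher there, BBX28 only without totals equalised. FT, the flowering gene activated by CONSTANS, did not reach 1 FPKM, and CONSTANS itself (BBX1) was at 0.36 to 1.11 FPKM in RNAi-21 and 0.38 to 0.73 FPKM in WT. The 5 TOPLESS family genes were not called in any comparison, and at 0.5 h the largest differences were -0.29 for TPR1 and -0.26 for TPR2. At 2 h all 5 lay below WT, and their median was -0.38. Of the 6 PIF and EIN3 genes, which code for factors that hold seedlings in the etiolated state, 4 were higher in RNAi-21 at 0.5 h, where PIF4 differed by 0.26 and EIN3 by -0.13. All 6 were lower at 2 h, with a median of -0.14, but 2 of them were higher under median-ratio scaling. The 5 photoreceptor genes were all lower in RNAi-21 at 0.5 h, without a call, with PHYA, the receptor of far-red light, at -0.55 and the UV-B receptor gene UVR8 at -0.25.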

How the data were processed

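Total RNA was sequenced in 6 libraries, 1 per group. Per the labels' protocols, TRIzol was used for extraction and the libraries were of a standard Illumina kind. The submitters' processing notes list HISAT and Bowtie2 with no version. The quantification tool, genome build and annotation were not given in the sources used here. Each deposited column was taken to be FPKM computed by the authors. This unit is an inference from fractional values with unequal library sums, since no header or label states it. The depth is unknown, so no counting interval is given.

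From these values log2(FPKM + 1) was computed, genes with at least 1 FPKM in at least 1 library were kept (18441), and libraries were subtracted in 11 comparisons. A difference of at least 1 in size is called 2-fold. With 1 library per group no test was run. The calculation was tested on simulated data. Symbols came from the RefSeq TAIR10.1 table, which was used for names and neighbours only; it holds all 105 loci of the gene lists, of which 97 are listed in the libraries. Promoter and protein sequences were not used here.

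The 5 genes and all lists were chosen with earlier results of these data known. Named were all 5 genes, other B-box genes that were called between genotypes or had the 2 largest light differences each way, the 2 largest differences of each other list, and the 3 nearest profiles per gene (5 for the mean profile). The FPKM of CONSTANS and HY5 and the share of the rise at 0.5 h were added after their values were seen. So were the values of DET1, MYB12, UGT84A1, RBCS1A, CRU3, CRA1 and EM6. The 0.5 h genotype differences of BBX2, BBX19, BBX22, BBX24 and BBX25 were added likewise. The same holds for the 0.5 h responses of BBX18, BBX19 and BBX22 in WT. It also holds for the 2 h responses of BBX20 in RNAi-21 and BBX17 in WT. Alternatives were a pseudocount of 0.1, filters of 0 and 5 FPKM, a 4-fold threshold and other scalings. Python 3.11.15, pandas 2.3.3, numpy 2.4.6 and matplotlib 3.10.9 were used.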

Additional observations from a re-analysis of the deposited data

Results flagged for a closer look

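The genotype difference had opposite signs at 0 h and 0.5 h for all 5 genes, and the change between these times was not tested. RNAi-21 minus WT was -0.36 at 0 h and 0.25 at 0.5 h for BBX28, -0.095 and 0.81 for BBX29, -0.63 and 1.89 for BBX30, -0.29 and 1.2 for BBX31, and -0.49 and 1.89 for BBX32. At 0 h BBX30, BBX31 and BBX32 were below 0.6 FPKM in both genotypes, so the sign at that time rests on values near the bottom of the scale, while that of BBX28 rests on 35.2 FPKM in RNAi-21 and 45.4 FPKM in WT.

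From 0.5 h to 2 h BBX28 differed by -0.012 in RNAi-21 and by 0.22 in WT, opposite signs that were not tested.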

How the results depend on the processing

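No paired analysis was possible because each group is 1 library. Of 55 differences of the 5 genes, 53 kept 1 sign with a pseudocount of 0.1, median-ratio scaling, or organelle-encoded genes left out with totals equalised. Those that changed sign were BBX28 at 2 h between genotypes (-0.09 to 0.06) and from 0.5 h to 2 h in RNAi-21 (-0.24 to 0.02). No sign of a 2-fold call was reversed. With a pseudocount of 0.1, 2 of the 5 genes in place of 0 were called at 0 h, both lower in RNAi-21 (BBX30 at -2.70 and BBX32 at -1.81), and 3 in place of 1 for the difference of the 2 h responses, while for that of the 0.5 h responses BBX29 reached 1.02, BBX30 4.64 in place of 2.52 and BBX32 3.89 in place of 2.38. With totals equalised, 1 in place of 2 was called from 0.5 h to 2 h in RNAi-21, and 0 in place of 1 for the difference of the 2 h responses. At a 4-fold threshold the calls at 0.5 h between genotypes became 0, those at 0.5 h against 0 h in WT 1, those from 0.5 h to 2 h 0 in RNAi-21 and 1 in WT, and the difference of the 2 h responses 0. Median-ratio scaling, no filter and a filter of 5 FPKM left these counts as they were. Of the genes named as nearest, BBX28 and BBX30 shared all 3 with those at a pseudocount of 0.1, BBX29 2, BBX31 and BBX32 1 each and the mean profile 3 of 5, and with Pearson correlation BBX28 and the mean profile shared 1 and the others 0.

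Over all tested genes, a pseudocount of 0.1 gave 379 in place of 155 higher at 0.5 h between genotypes, 131 in place of 31 higher and 231 in place of 73 lower at 0 h, 326 in place of 106 higher at 2 h, 552 in place of 329 at 0.5 h in RNAi-21, 337 in place of 151 in WT, and 474 in place of 171 and 510 in place of 180 for the differences of the responses. A filter of 5 FPKM gave 20 and 42 at 0 h, 70 at 2 h, and 112 and 86 for the differences of the responses. With totals equalised the median of all genes moved to -0.19 for 2 h against 0 h in RNAi-21, to -0.23 from 0.5 h to 2 h in RNAi-21, to -0.12 at 2 h between genotypes and to -0.14 for the difference of the 2 h responses. The higher share of calls became 42.5% at 0 h, 55.6% at 2 h in RNAi-21, 51.8% from 0.5 h to 2 h in RNAi-21 and 30.8% for the difference of the 2 h responses. The gap in the share of the rise at 0.5 h remained positive for all 5 genes under both scalings (28.7 to 58.0 points with totals equalised), a check chosen after seeing the data, as was that of the other lists. There PRR9 passed the call at 0.5 h between genotypes with a pseudocount of 0.1 (1.03) or totals equalised (1.01), and BBX18 kept it at 1.00 to 1.2, and BBX17 passed it at 2 h at -1.04 and -1.07 under these settings.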
